A study of Mus musculus with 18 samples.

Results

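The genes described here encode 10 receptor tyrosine kinases through which growth factors act on oligodendrocyte progenitor cells (OPCs), which divide and can mature into the cells that wrap axons of the brain and spinal cord in myelin. They are the PDGF receptor gene Pdgfra, the FGF receptor genes Fgfr1, Fgfr2 and Fgfr3, the EGF and neuregulin receptor genes Egfr, Erbb2, Erbb3 and Erbb4, and the insulin family receptor genes Igf1r and Insr. They were chosen by name, and each was found as 1 of 54279 rows in each of the deposited tables. All 10 had enough counts to be tested in both tables. RNA was sequenced from mouse OPCs derived from epiblast stem cells and cultured in a medium that contained the ligands Fgf2 and Pdgfa. There were 6 groups of 3 libraries, lettered A to C. A first experiment compared untreated CRISPR-Control with untreated CRISPR-Vhl cells. In a second, both kinds of cells received either the solvent DMSO or the MEK1/2 kinase inhibitor AZD8330 at 300 nM for 14 hours. The cells called CRISPR-Vhl in the labels are described as VHL knockout in the design text. The sources used here do not give the guide, the edited part of Vhl or whether the cells were a clone or a pool. Nothing says whether libraries of 1 group came from separate cultures, and the p-values therefore reflect only the spread among these libraries, which may be technical.

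A receptor tyrosine kinase spans the cell membrane. When its ligand binds outside, paired receptors phosphorylate each other inside the cell, adaptor proteins dock, and the signal runs through the Ras, RAF, MEK and ERK relay and through PI3K and AKT. In OPCs PDGF-A acting on PDGFRA is the classical mitogen, FGF2 sustains that response and holds back differentiation, and IGF1 and neuregulins support survival and maturation. With oxygen present the VHL protein has HIF, the hypoxia-inducible transcription factor, degraded, and AZD8330 blocks the relay below the receptors, between RAF and ERK.

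The sequence just before the start of transcription was taken from RefSeq (GRCm38.p6) for the 7 members with an entry, 8 windows of 250 bases in all. Each was searched on both strands for the core of the HIF binding site (ACGTG or GCGTG, with CACGTG counted once per strand) and for 3 other short motifs, the SOX motif ACAAAG, the ETS motif CCGGAAG and the FOXO motif GTAAACA. The HIF core was found in 2 of the 8 windows and in 38.6% of 32851 windows of all genes. The windows below are those of the members with a HIF core match, Fgfr3 and Igf1r, and of Pdgfra. Pdgfra rose most of the 10 genes in Vhl cells in DMSO and has no match in its window. Each window precedes 1 annotated start, and starts without an entry were not searched. The RefSeq gene of Pdgfra begins at chr5:75151322, before its window, and the GENCODE gene of Igf1r at chr7:67952827, after its window. The GENCODE genes of Fgfr3 and Erbb2 begin at chr5:33721674 and chr11:98412470, each within a window. The Fgfr2 window (chr7:130266809-130267058) lies inside the GENCODE gene (chr7:130162451-133123350, minus strand), as does another Fgfr3 window (chr5:33722056-33722305) inside that of Fgfr3. Capitals mark the HIF core matches on either strand.
Fgfr3, chr5:33721474-33721723, plus strand: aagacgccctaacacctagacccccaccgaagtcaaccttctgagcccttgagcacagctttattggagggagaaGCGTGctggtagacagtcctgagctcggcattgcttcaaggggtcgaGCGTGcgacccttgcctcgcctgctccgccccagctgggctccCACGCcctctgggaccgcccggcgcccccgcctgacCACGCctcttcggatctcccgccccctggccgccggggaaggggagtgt
Igf1r, chr7:67952007-67952256, plus strand: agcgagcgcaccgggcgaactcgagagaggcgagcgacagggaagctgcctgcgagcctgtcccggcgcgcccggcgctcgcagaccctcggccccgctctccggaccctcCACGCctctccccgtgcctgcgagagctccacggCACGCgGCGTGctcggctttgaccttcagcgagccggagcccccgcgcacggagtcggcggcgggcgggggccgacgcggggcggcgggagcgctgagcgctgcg
Pdgfra, chr5:75152001-75152250, plus strand: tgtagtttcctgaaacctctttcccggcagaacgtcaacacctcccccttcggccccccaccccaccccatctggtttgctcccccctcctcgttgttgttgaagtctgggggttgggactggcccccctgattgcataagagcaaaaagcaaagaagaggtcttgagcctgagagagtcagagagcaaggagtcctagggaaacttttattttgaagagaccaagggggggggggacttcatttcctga

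The Fgfr3 window holds 4 matches and the Igf1r window 3. The windows differ in base composition, with 66.8% G and C and 19 CpG in Fgfr3, 77.6% and 42 in Igf1r, and 54.4% and 4 in Pdgfra. A second Fgfr3 window, and those of Fgfr2, Egfr, Erbb2 and Erbb4, hold no HIF core. The ETS motif was in 1 window, that of Egfr, against 6.91% of all windows. The SOX and FOXO motifs were in none of the 8, against 16.5% and 3.17% of all windows. A match describes the letters only, and nothing in these data shows whether a factor binds there.

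Library totals ran from 14594148 to 21160250 estimated counts for untreated libraries and from 12391077 to 16349676 for those of the drug experiment. The OPC markers fixed for this work (10 genes, among them Olig1, Olig2 and Cspg4) summed to between 8406 and 16083 CPM (counts scaled to library size) in every library, and the 6 microglia markers to at most 1.65 CPM. In DMSO control cells had 106 ± 3.39 CPM of Vhl mRNA and Vhl cells 92.2 ± 2.12 (SD, n = 3, adjusted p = 0.00778, edgeR's quasi-likelihood test), and every Vhl library lay below every control library in each treatment. AZD8330 lowered Dusp6, the ERK phosphatase gene that reports ERK activity, from 415 ± 9.48 to 20.9 ± 0.375 CPM in control cells and from 384 ± 16.4 to 32.8 ± 2.16 CPM in Vhl cells. Spry4, an ERK feedback gene, went from 162 to 16.3 CPM in control cells. Olig2 had means of 1134 to 1495 CPM in the drug groups. In the untreated experiment both A libraries stood apart. Sox10, the lineage transcription factor gene, was at 526 CPM in control A while control B and C had 87.8 and 87.5, and at 326 CPM in Vhl A while Vhl B and C had 15.3 and 16.0. The HIF target Vegfa reached 38.7 CPM in Vhl A, where Vhl B had 407 and Vhl C 642. Untreated results are therefore given with and without both A libraries.

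In DMSO 5 of the 10 receptor genes rose in Vhl cells (Pdgfra, Fgfr3, Erbb4, Igf1r and Insr) and 3 fell (Fgfr2, Egfr and Erbb3). Of all 13460 genes tested, 13.8% rose and 18.5% fell. The median log2 change of the 10 was 0.13, against −0.03 over all genes, and 8 of the 10 had genotypes that did not overlap, as had 44.8% of all genes. With libraries scaled by total counts the share of rises among all changed genes went from 42.6% to 56.6%, while the 8 calls of receptor genes were kept. In AZD8330 4 rose in Vhl cells (Pdgfra, Fgfr1, Fgfr3 and Igf1r) and 4 fell (Fgfr2, Egfr, Erbb3 and Erbb4), against 16% and 14% of all genes, with a median log2 change of 0.02 against 0.01. Rose and fell mean an adjusted p under 0.05 in edgeR's quasi-likelihood test over all tested genes.

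AZD8330 moved all 10 receptor genes in both kinds of cells. In control cells 6 rose (Pdgfra, Fgfr2, Fgfr3, Egfr, Erbb3 and Erbb4) and 4 fell (Fgfr1, Erbb2, Igf1r and Insr), against 29.1% and 31.7% of all genes, with a median log2 change of 0.53 against −0.01. In Vhl cells the drug also raised 6 and lowered 4, against 25.8% and 25.6% of all genes, each in the direction it had in control cells, with a median log2 change of 0.49 against 0.03. The drug effect differed between Vhl and control cells for Fgfr1, which fell less in Vhl cells (a positive difference), and for Erbb4, which rose less (a negative one), 1 of 10 in each direction, against 7.81% and 4.96% of all genes. With total-count scaling the share of higher values among all such differences went from 61.2% to 44.0%. Vhl cells in AZD8330 set against control cells in DMSO had 3 receptor genes higher and 6 lower, against 31.7% and 30.9% of all genes. All comparisons of the drug table share libraries, so they are not independent of each other.

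In untreated cells 0 of the 10 receptor genes rose and 0 fell by edgeR, against 0.0147% and 0% of 13569 genes, of which 1267 had an unadjusted p under 0.05. The median log2 change of the 10 was 0.01, against 0.05 over all genes. Of the 10, at an unadjusted p under 0.05 there were 2, Fgfr2 and Erbb4, and DESeq2 called 1, Fgfr2. The Vhl and control libraries did not overlap for 3 members, Pdgfra, Fgfr2 and Erbb4, each lower in Vhl cells, and for 15.8% of all genes tested. Without both A libraries the log2 difference was 0.28 for Fgfr1 (adjusted p = 0.175), −0.0039 for Fgfr3 (0.987), 0.49 for Egfr (0.203) and 0.33 for Erbb2 (0.154, edgeR), and the other 6 are given below. The low number of calls goes with a wide spread between libraries: the common dispersion, edgeR's measure of that spread, was 0.144 for untreated libraries and 0.0161 for drug libraries.

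**Figure D1:**
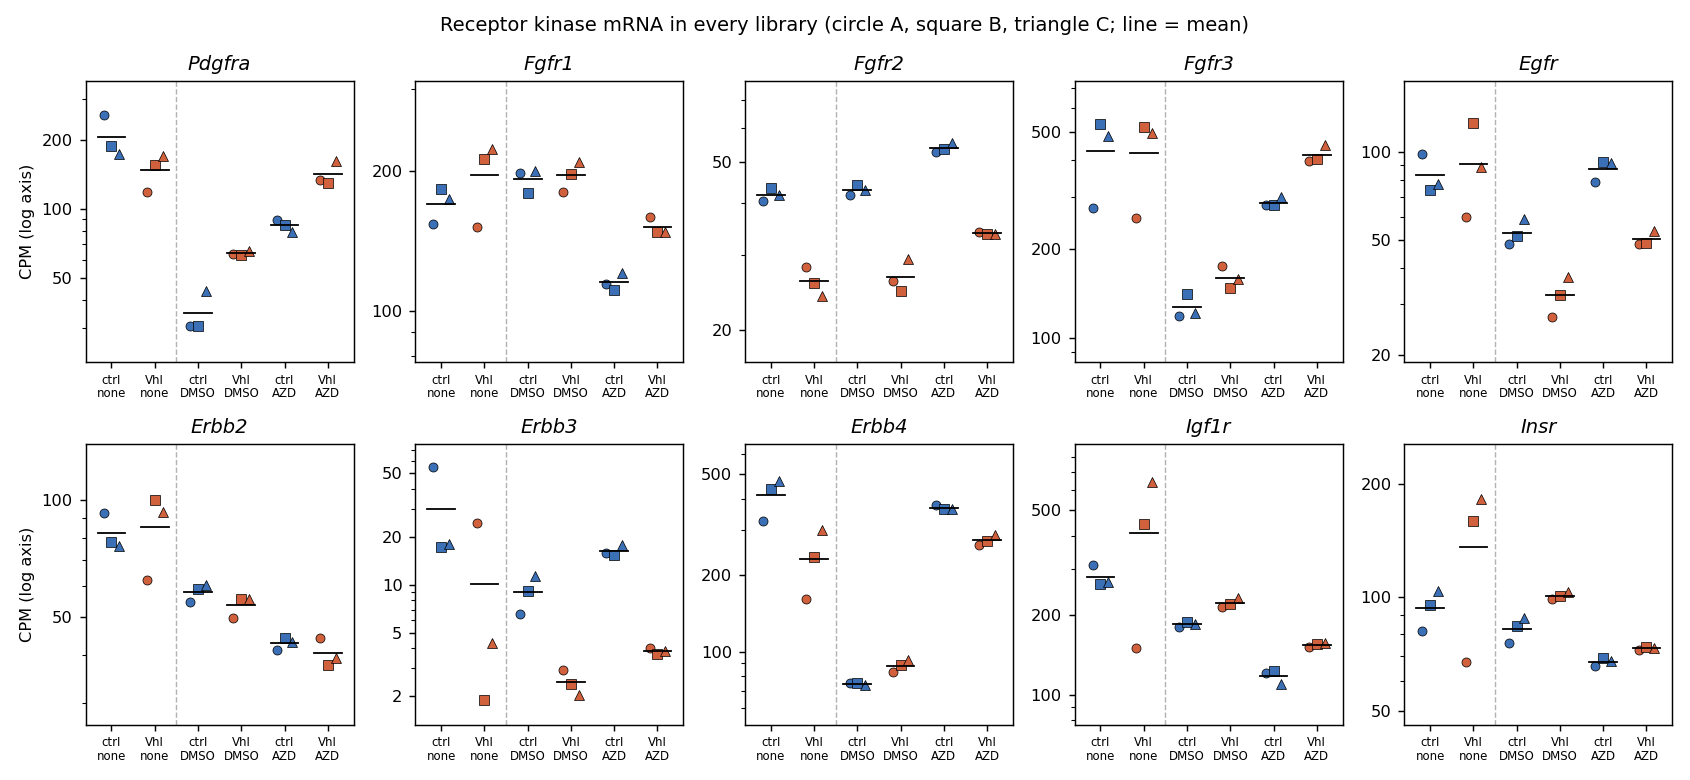
CPM of each receptor gene in every library (log axis, a different range in each panel; circle A, square B, triangle C; line, mean of 3 libraries). Groups left of the dashed line are the untreated table and those right of it the drug table, which were scaled separately; Erbb4 had a mean of 74.8 CPM in control cells in DMSO and of 369 CPM in AZD8330.

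The levels of the receptor genes were compared with each other only per length, as CPM per kilobase of the longest coding transcript (GENCODE M21). Fgfr3 had the highest level in untreated control cells (101 ± 31.7 CPM per kb), in untreated Vhl cells (99.5 ± 34.0), in control cells in AZD8330 (67.8 ± 2.45) and in Vhl cells in AZD8330 (98.4 ± 6.95). In each of those groups its lowest library lay above the highest library of the next gene. In control cells in DMSO Fgfr1 led with 38.1 ± 2.34 CPM per kb, followed by Fgfr3 with 29.99 ± 2.89 and Igf1r with 16.2 ± 0.352, none of them overlapping. In Vhl cells in DMSO Fgfr1 (38.8 ± 2.85) and Fgfr3 (37.8 ± 3.16) overlapped.

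Pdgfra, the receptor for the Pdgfa in the medium, ranked 9 of 10 in control cells in DMSO, with 5.13 ± 1.11 CPM per kb. Its libraries overlapped there with those of Egfr at 5.17 ± 0.529 and of Erbb4 at 6.21 ± 0.0743. In untreated control cells, by contrast, Pdgfra ranked 4 with 30.2 ± 6.60 CPM per kb. It overlapped there with Erbb4 (34.2 ± 6.21) and Fgfr1 (33.7 ± 3.0) above it and Igf1r (24.6 ± 2.32) below it. Erbb4 ranked 2 in control cells in AZD8330 (30.7 ± 0.560) and 7 in control cells in DMSO (6.21 ± 0.0743). By this length Erbb3 had the lowest mean in all 6 groups, from 0.408 ± 0.0763 CPM per kb in Vhl cells in DMSO to 4.98 ± 3.55 in untreated control cells. In the latter its libraries overlapped with those of Egfr and Insr. With the summed length of all exons instead, Erbb3 ranked 9 and Fgfr2 10 in untreated control cells, and Fgfr3 ranked 1 and Fgfr1 2 in Vhl cells in DMSO. Levels in the untreated and drug tables stand on separate scalings and were not tested against each other.

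**Figure D2:**
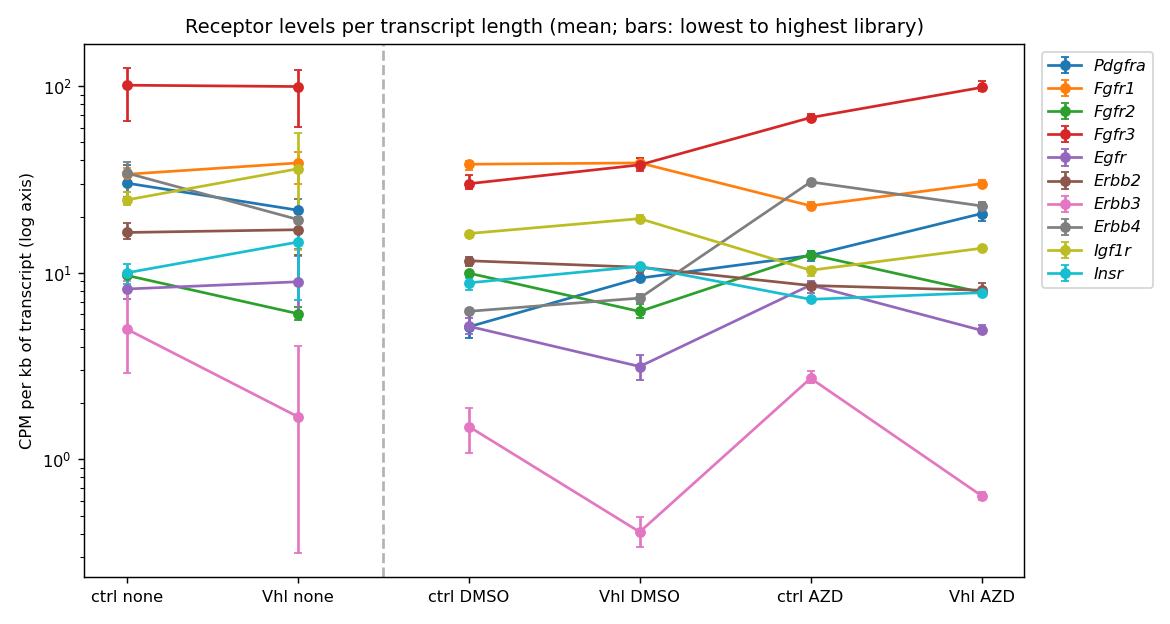
Level of each receptor gene per kilobase of its longest coding transcript (log axis; points, mean of 3 libraries; bars, lowest to highest library) in the 6 groups, the untreated table left of the dashed line. By this length Fgfr3 has the highest mean in 4 groups, Fgfr1 in both DMSO groups and Erbb3 the lowest in all 6; with the summed length of all exons Fgfr3 leads in Vhl cells in DMSO and Fgfr2 is lowest in untreated control cells.

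Pdgfra (ENSMUSG00000029231.15, chr5:75152292-75198215 on the plus strand of GRCm38, GENCODE M21) encodes the receptor that drives OPC division. In DMSO it was 30.7, 30.6 and 43.8 CPM in control libraries A, B and C, in that order, and 63.2, 63.0 and 65.6 CPM in Vhl libraries. In AZD8330 it was 89.2, 85.3 and 79.2 CPM in control and 134, 130 and 162 CPM in Vhl libraries. The 4 groups did not overlap, and control C in DMSO was the highest of its group.

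Pdgfra thus rose in Vhl cells 1.83-fold in DMSO (log2 0.87 ± 0.13 SE, adjusted p = 0.000169) and 1.68-fold in AZD8330 (log2 0.74 ± 0.11, adjusted p = 0.000264, both by edgeR). The drug raised it 2.42-fold in control cells (log2 1.27 ± 0.12, adjusted p = 1.17e-06) and 2.22-fold in Vhl cells (log2 1.15 ± 0.12, adjusted p = 2.81e-06). The difference of these drug effects, log2 −0.13 ± 0.17, did not pass (adjusted p = 0.705). From control cells in DMSO to Vhl cells in AZD8330 Pdgfra rose 4.05-fold, the largest rise of the 10 receptor genes in that comparison.

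In untreated cells the order was the reverse. Pdgfra was 258, 188 and 173 CPM in control libraries A, B and C, in that order, and 119, 155 and 170 CPM in Vhl libraries. The groups did not overlap, control A being the highest and Vhl A the lowest, and the difference (log2 −0.48 ± 0.23) did not pass (adjusted p = 0.575, edgeR). Without both A libraries it was log2 −0.16 (adjusted p = 0.419, edgeR).

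The FGF receptors bind the Fgf2 of the medium, and they moved in different directions. Fgfr1 (ENSMUSG00000031565.18, chr8:25513654-25575718, plus strand) encodes an FGF2 receptor that OPCs are known to carry. Under DMSO the levels were 198, 179 and 200 CPM in control and 180, 197 and 209 CPM in Vhl libraries. Under AZD8330 the levels were 114, 111 and 120 CPM in control and 159, 147 and 147 CPM in Vhl libraries. The genotypes overlapped in DMSO and not in AZD8330.

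The drug lowered Fgfr1 in control cells to 0.599 of its DMSO level (log2 −0.74 ± 0.06, adjusted p = 2.37e-07) and in Vhl cells to 0.774 (log2 −0.37 ± 0.06, adjusted p = 0.000192). The fall was smaller in Vhl cells by log2 0.37 ± 0.09 (adjusted p = 0.0136, edgeR's interaction term). That call was lost without Vhl A in AZD8330 (log2 0.25, adjusted p = 0.12) and without control B in AZD8330 (log2 0.26, adjusted p = 0.123). Fgfr1 was accordingly higher in Vhl cells in AZD8330 (log2 0.39 ± 0.06, adjusted p = 0.000303), while in DMSO the difference was log2 0.02 ± 0.06 (adjusted p = 0.808). Untreated, it stood at 153, 183 and 173 CPM in control and 151, 212 and 223 CPM in Vhl libraries, which overlapped (adjusted p = 0.823, edgeR).

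Fgfr2 (ENSMUSG00000030849.18, chr7:130162451-133123350, minus strand), whose product serves later oligodendrocyte stages together with FGFR1, was lower in Vhl cells in each setting by nearly the same amount. DMSO libraries held 41.7, 44.1 and 42.8 CPM in control and 26.0, 24.7 and 29.4 CPM in Vhl libraries. AZD8330 libraries held 52.8, 53.7 and 55.4 CPM in control and 34.1, 33.7 and 33.8 CPM in Vhl libraries. Untreated levels were 40.3, 43.2 and 41.6 CPM in control and 28.2, 25.9 and 24.0 CPM in Vhl libraries.

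The genotypes did not overlap in any of the 3 settings. The log2 difference was −0.68 ± 0.07 in DMSO (adjusted p = 6.08e-06), −0.67 ± 0.06 in AZD8330 (adjusted p = 4.28e-06) and −0.68 ± 0.17 in untreated cells, where it did not pass (adjusted p = 0.272, edgeR). DESeq2 called the untreated difference (adjusted p = 0.0171), and without both A libraries it was −0.77 (adjusted p = 0.0599, edgeR). AZD8330 raised Fgfr2 1.26-fold in control and 1.27-fold in Vhl cells. Fgfr2 shares 314 exon bases on the same strand with Ctbp2, a corepressor gene of 18.1 to 38.7 CPM, so some reads of the pair could have been assigned to either.

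Fgfr3 (ENSMUSG00000054252.18, chr5:33721674-33737068, plus strand) is known as a gene of OPCs and, more strongly, of astrocytes. The DMSO values were 119, 141 and 122 CPM in control and 175, 148 and 158 CPM in Vhl libraries. The AZD8330 values were 282, 282 and 300 CPM in control and 397, 404 and 451 CPM in Vhl libraries. The 4 groups did not overlap.

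Fgfr3 was higher in Vhl cells by log2 0.33 ± 0.08 in DMSO (adjusted p = 0.00473) and by log2 0.54 ± 0.07 in AZD8330 (adjusted p = 9.13e-05, edgeR). The drug raised it 2.26-fold in control cells (adjusted p = 1.96e-08) and 2.60-fold in Vhl cells (adjusted p = 6.00e-09), and the difference of these effects, log2 0.20 ± 0.10, did not pass (adjusted p = 0.252). In the untreated experiment there were 276, 529 and 482 CPM in control and 256, 517 and 494 CPM in Vhl libraries. The low values are those of both A libraries, and the genotypes overlapped (adjusted p = 0.991).

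Astrocyte markers rose with the drug, as Fgfr3 did, while between the genotypes they moved in both directions. With the drug 8 of the 9 rose and none fell in control cells (median log2 1.53, against −0.01 over all genes), against 29.1% and 31.7% of all genes. In Vhl cells 8 rose and none fell (median log2 1.24, against 0.03), against 25.8% and 25.6% of all genes. Between Vhl and control cells in AZD8330, where Fgfr3 was higher in Vhl cells, 3 of the 9 rose and 4 fell (median log2 −0.14, against 0.01). Of all genes 16% rose and 14% fell there. In DMSO, where 13.8% of all genes rose and 18.5% fell, 3 of these markers rose and 3 fell (median log2 0.37, against −0.03). Their summed level went from 1575 to 1608 CPM in DMSO to between 2964 and 3092 CPM in AZD8330 in control cells, and from 2062 to 2107 CPM to between 3092 and 3147 CPM in Vhl cells. None was at 0 in any group, and Gfap went from 4.12 ± 0.525 to 131 ± 7.79 CPM in control cells. Their part in the result was not tested. In bulk RNA a change in the number of cells of a type and a change in RNA per cell cannot be told apart.

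Egfr (ENSMUSG00000020122.16, chr11:16752203-16918158, plus strand), the EGF receptor gene, fell in Vhl cells and rose with the drug. With DMSO there were 48.1, 51.4 and 58.7 CPM in control and 27.1, 32.2 and 37.0 CPM in Vhl libraries. With AZD8330 there were 79.1, 92.6 and 91.4 CPM in control and 48.4, 48.6 and 53.4 CPM in Vhl libraries. Vhl cells in AZD8330 thus overlapped with control cells in DMSO, and the other groups stood apart.

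The fall of Egfr in Vhl cells was log2 −0.71 ± 0.11 in DMSO (adjusted p = 0.000274) and −0.81 ± 0.10 in AZD8330 (adjusted p = 6.41e-05). The drug raised it by log2 0.73 ± 0.10 in control cells (adjusted p = 3.94e-05) and by log2 0.64 ± 0.11 in Vhl cells (adjusted p = 0.000292, all by edgeR). Between Vhl cells in AZD8330 and control cells in DMSO the difference was log2 −0.07 ± 0.11 and did not pass (adjusted p = 0.571). In untreated cells Egfr stood at 98.7, 74.1 and 77.7 CPM in control and 59.9, 125 and 88.5 CPM in Vhl libraries, which overlapped (adjusted p = 0.941).

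Erbb2 (ENSMUSG00000062312.5, chr11:98412470-98437716, plus strand) encodes the ErbB partner that binds no ligand of its own. It was 54.6, 59.2 and 60.5 CPM in control and 49.8, 55.5 and 55.6 CPM in Vhl libraries in DMSO, and 41.1, 44.2 and 43.0 against 44.1, 37.7 and 39.3 CPM in AZD8330. The genotypes overlapped in each treatment (adjusted p = 0.247 in DMSO and 0.435 in AZD8330). The drug lowered Erbb2 by log2 −0.44 ± 0.07 in control cells (adjusted p = 0.000124) and by log2 −0.41 ± 0.07 in Vhl cells (adjusted p = 0.000336, edgeR). The untreated libraries had 93.0, 77.9 and 76.1 CPM in control and 62.2, 99.97 and 93.5 CPM in Vhl libraries, which overlapped (adjusted p = 0.972).

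Erbb3 (ENSMUSG00000018166.8, chr10:128567523-128589652, minus strand) encodes the neuregulin receptor whose own kinase is weak and which signals through ERBB2. It had the largest fall in Vhl cells of the 10 receptor genes. In DMSO it was 6.54, 9.16 and 11.3 CPM in control and 2.95, 2.38 and 2.04 CPM in Vhl libraries, from 399 and 99 counts summed over the groups. In AZD8330 it was 15.8, 15.5 and 17.8 CPM in control and 4.0, 3.66 and 3.86 CPM in Vhl libraries.

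All 4 groups of Erbb3 stood apart. The fall in Vhl cells was log2 −1.87 ± 0.21 in DMSO (0.273 of control, adjusted p = 2.55e-05) and −2.09 ± 0.20 in AZD8330 (0.235 of control, adjusted p = 5.50e-06, edgeR). The drug raised Erbb3 1.82-fold in control cells (adjusted p = 0.00167) and 1.56-fold in Vhl cells (adjusted p = 0.0256). The latter call rests on few counts. It was lost with no filter on low counts (adjusted p = 0.058), with only the groups compared in the fit (0.0686), and without Vhl A (0.0889) or C (0.0518) in AZD8330 or Vhl B (0.0673) or C (0.0939) in DMSO.

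In untreated cells Erbb3 stood at 54.6, 17.4 and 17.9 CPM in control and 24.3, 1.90 and 4.31 CPM in Vhl libraries. In each genotype library A was the highest, and Vhl A lay above control B and C, so that the groups overlapped. The difference was log2 −1.55 ± 0.93 (adjusted p = 0.677), and −2.51 without both A libraries (adjusted p = 0.056, edgeR), where the libraries left did not overlap.

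Erbb4 (ENSMUSG00000062209.15, chr1:68032186-69108059, minus strand) encodes a neuregulin receptor with an active kinase. It had the largest drug effect of the 10 receptor genes. Under DMSO the levels were 75.3, 75.2 and 73.7 CPM in control and 83.4, 88.2 and 92.4 CPM in Vhl libraries. Under AZD8330 the levels were 377, 365 and 365 CPM in control and 262, 273 and 288 CPM in Vhl libraries. The 4 groups did not overlap, and the order of the genotypes in DMSO was reversed in AZD8330.

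AZD8330 raised Erbb4 4.93-fold in control cells (log2 2.30 ± 0.04, adjusted p = 4.34e-13) and 3.12-fold in Vhl cells (log2 1.64 ± 0.04, adjusted p = 9.26e-12). The rise was smaller in Vhl cells by log2 −0.66 ± 0.06 (adjusted p = 2.64e-05, edgeR's interaction term). Erbb4 was higher in Vhl than in control cells in DMSO (log2 0.24 ± 0.05, adjusted p = 0.00166) and lower in AZD8330 (log2 −0.43 ± 0.04, adjusted p = 4.63e-06). Untreated, it stood at 327, 437 and 470 CPM in control and 161, 235 and 300 CPM in Vhl libraries. Those groups did not overlap either, but the lower level in Vhl cells (log2 −0.83 ± 0.27) did not pass (adjusted p = 0.417, and −0.76 with adjusted p = 0.0761 without both A libraries, edgeR).

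Igf1r (ENSMUSG00000005533.10, chr7:67952827-68233668, plus strand), the receptor gene for the survival factor IGF1, was higher in Vhl cells and fell with the drug. DMSO libraries held 181, 189 and 185 CPM in control and 215, 220 and 232 CPM in Vhl libraries. AZD8330 libraries held 120, 123 and 110 CPM in control and 151, 155 and 156 CPM in Vhl libraries. The 4 groups did not overlap. The rise in Vhl cells was log2 0.27 ± 0.04 in DMSO (adjusted p = 0.000469) and log2 0.39 ± 0.04 in AZD8330 (adjusted p = 2.39e-05), and the fall with the drug was log2 −0.65 ± 0.04 in control (adjusted p = 3.87e-08) and −0.53 ± 0.04 in Vhl cells (adjusted p = 4.12e-07, edgeR).

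In untreated cells Igf1r stood at 311, 262 and 268 CPM in control and 150, 444 and 640 CPM in Vhl libraries. Vhl A was the lowest of all 6 libraries, and Vhl B and C were the highest. The difference was log2 0.55 ± 0.47 (adjusted p = 0.783) and 1.03 without both A libraries (adjusted p = 0.0713, edgeR).

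Insr (ENSMUSG00000005534.10, chr8:3122061-3279617, minus strand), the insulin receptor gene, was higher in Vhl cells in DMSO and fell with the drug. The DMSO values were 75.6, 84.1 and 87.9 CPM in control and 99.0, 101 and 104 CPM in Vhl libraries, and in AZD8330 65.6, 68.9 and 67.6 against 72.3, 73.7 and 73.4 CPM. The genotypes did not overlap in either treatment. The difference passed in DMSO (log2 0.29 ± 0.05, adjusted p = 0.000825) and not in AZD8330 (log2 0.12 ± 0.05, adjusted p = 0.117), and the difference between them, log2 −0.18 ± 0.07, did not pass (adjusted p = 0.157).

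The drug lowered Insr by log2 −0.29 ± 0.05 in control cells (adjusted p = 0.000331) and by log2 −0.47 ± 0.05 in Vhl cells (adjusted p = 6.93e-06). In untreated cells Insr stood at 81.4, 95.3 and 104 CPM in control and 67.1, 160 and 183 CPM in Vhl libraries, with Vhl A again the lowest and Vhl B and C the highest. The difference was log2 0.55 ± 0.36 (adjusted p = 0.709). It passed without both A libraries (log2 0.78, adjusted p = 0.0487) and without Vhl A alone (log2 0.87, adjusted p = 0.046, edgeR).

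**Figure D3:**
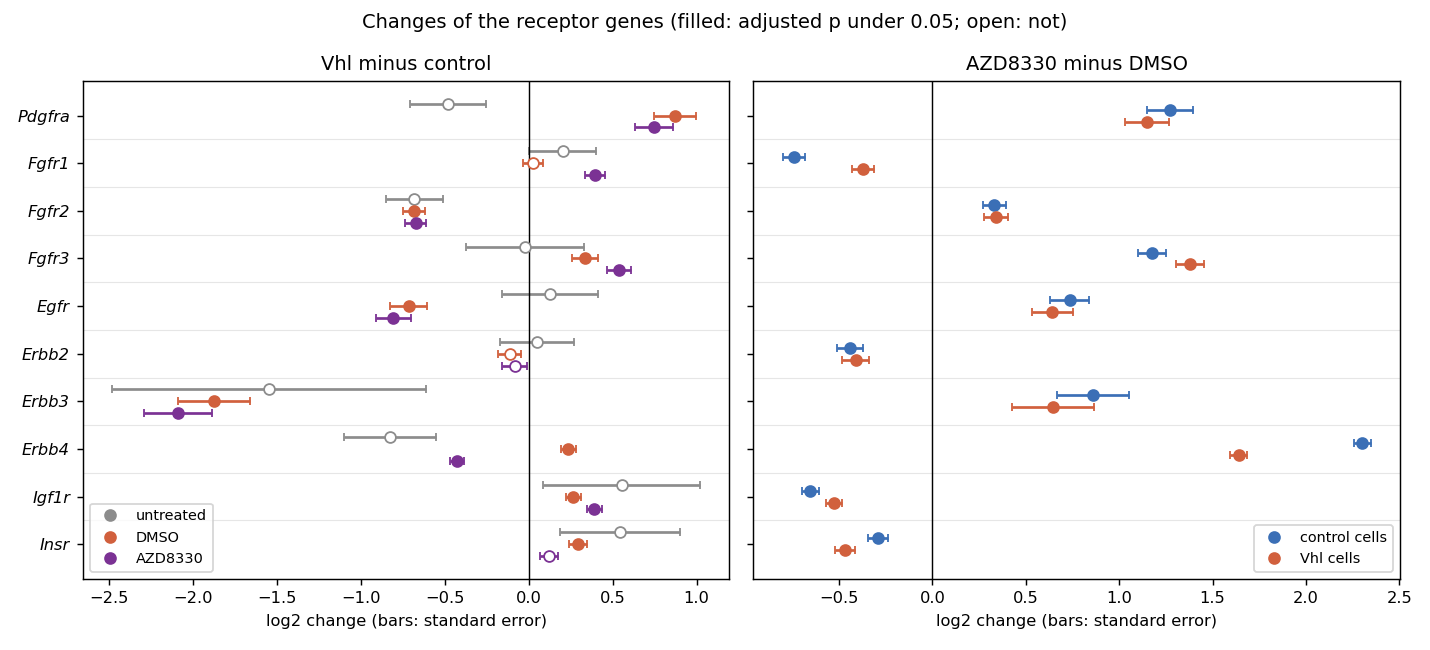
Log2 change of each receptor gene between Vhl and control cells (left) and between AZD8330 and DMSO (right), from edgeR, with 3 libraries a group. Bars are the standard error derived from edgeR's F statistic, and filled points have an adjusted p under 0.05. Fgfr2 lies between −0.68 and −0.67 in all 3 settings on the left, Erbb4 changes sign between DMSO and AZD8330, and on the right all 10 genes have the same sign in control and Vhl cells.

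The genes whose pattern over the 12 drug libraries was most like that of each of the 4 members with the widest range were sought among 9356 genes. Likeness was the root mean square difference of mean-centred log2(CPM + 1), where 0 is an identical pattern. For Erbb3 the nearest was Sox10, at 0.204, with the growth factor gene Kitl next at 0.394 and Zfp469 at 0.398. Sox10 was 51.2 ± 3.80 CPM in control cells in DMSO, 97.3 ± 2.47 in AZD8330, 17.7 ± 2.39 in Vhl cells in DMSO and 31.0 ± 3.75 in AZD8330. In the untreated table, which the measure did not use, Sox10 and Erbb3 both had their highest library of each genotype in A and their lowest values in Vhl B and C. This order is not particular to the pair. Gpr17, Lhfpl3, S100b and Hbegf had it too, while Fgfr3 was lowest in A of each genotype.

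For Pdgfra the nearest was Kit, another receptor kinase gene of the same family, at 0.150, followed by Gpr37l1 at 0.170 and Dpp10 at 0.172. Kit was 51.1 ± 1.07 CPM in control cells in DMSO, 110 ± 4.10 in AZD8330, 91.3 ± 2.79 in Vhl cells in DMSO and 195 ± 8.58 in AZD8330. Kit is also the next protein-coding gene after Pdgfra in RefSeq (GRCm38.p6, chr5:75574987-75656722), 376.8 kb away, though not the nearest. Kdr, the gene after it, was at 3.29 ± 0.629, 5.88 ± 0.733, 6.49 ± 0.665 and 5.69 ± 0.208 CPM in the same groups, in that order, a different order. On the other side Gsx2, 73.43 kb from Pdgfra, was at or near 0. Chic2, 106.7 kb from Pdgfra, was 46.0 ± 1.79, 60.1 ± 2.62, 62.5 ± 3.72 and 72.8 ± 2.84 CPM, again with the lowest mean in control cells in DMSO and the highest in Vhl cells in AZD8330. In the untreated experiment, which the measure did not use, Kit was 129, 201 and 195 CPM in control libraries A, B and C. Vhl libraries had 103, 145 and 159 CPM, and the genotypes overlapped, unlike those of Pdgfra. Control A was the lowest control library for Kit and the highest for Pdgfra, while Vhl A was the lowest library for both genes.

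For Erbb4 the nearest were Lrrn1 (0.121), the microRNA host gene Mir9-3hg (0.135) and Prss23 (0.138). Lrrn1 went from 327 to 1516 CPM with the drug in control cells and from 342 to 974 CPM in Vhl cells. For Fgfr3 they were Ddr1, a collagen receptor kinase gene (0.142), Irx1 (0.148) and Numbl (0.161). Ddr1 went from 207 to 421 CPM in control and from 241 to 530 CPM in Vhl cells. Such likeness was computed over libraries in which many genes moved, and it was given no test.

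**Figure D4:**
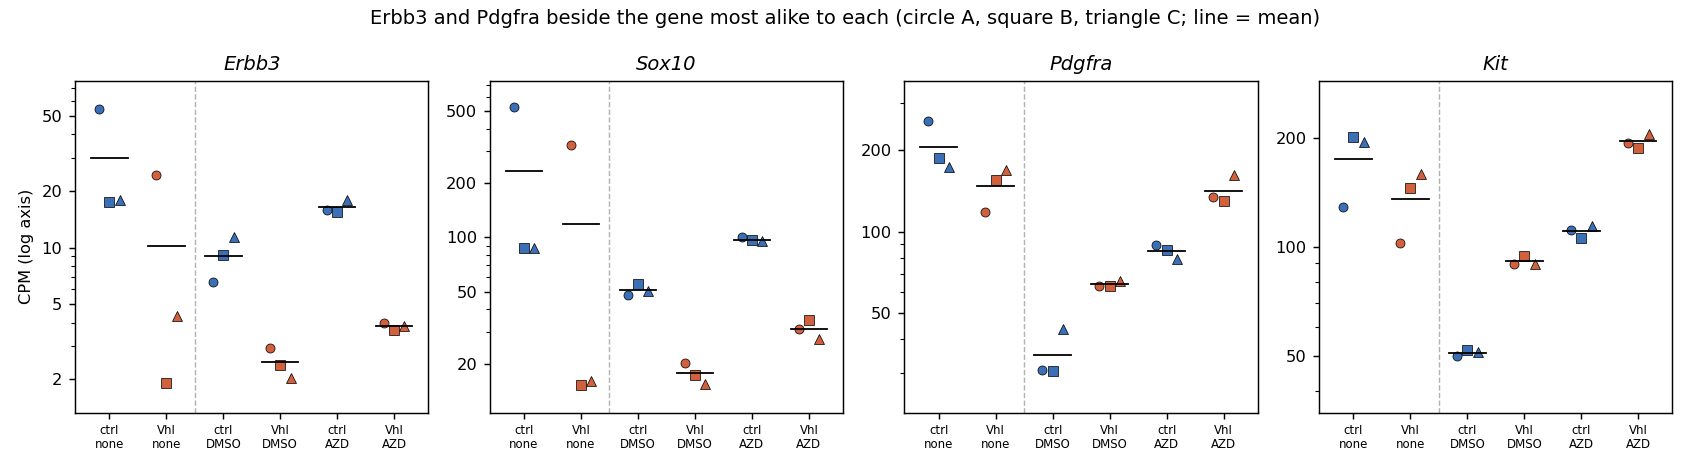
Erbb3 and Pdgfra beside the gene with the most similar pattern over the drug libraries, Sox10 and Kit (CPM, log axis; circle A, square B, triangle C; line, mean of 3 libraries; untreated table left of the dashed line). Among the drug groups Erbb3 and Sox10 are lowest in Vhl cells in DMSO, and Pdgfra and Kit rise from control cells in DMSO to Vhl cells in AZD8330. In each untreated genotype Erbb3 and Sox10 are highest in library A, as are some genes not shown, such as Gpr17 and S100b. In untreated control cells library A is the highest for Pdgfra and the lowest for Kit.

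Of 9 other receptors of these and related families, 5 were tested in the drug table. In DMSO 3 rose in Vhl cells and none fell (median log2 0.40, against −0.03 over all genes). These were Kit, the neurotrophin receptor gene Ntrk2 (274 ± 3.29 to 362 ± 4.79 CPM) and Ntrk3 (50.9 to 73.1 CPM). In control cells the drug raised 2, Ntrk2 to 822 ± 11.9 CPM and Kit, and lowered Ntrk3 to 39.3 CPM. That 3.0-fold rise of Ntrk2 was exceeded by 1 of the 10 receptor genes described above, Erbb4. The counts of this list and of those below stand beside the shares of all genes tested. In Vhl cells in DMSO 13.8% of all genes rose and 18.5% fell, and with the drug in control cells 29.1% rose and 31.7% fell.

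None of the 4 insulin family ligand genes had enough counts to be tested. Of 4 PDGF ligand genes 2 were tested. In DMSO Pdgfa rose from 1.48 ± 0.587 CPM in control to 2.74 ± 0.589 CPM in Vhl cells (adjusted p = 0.0486, edgeR), and Pdgfc fell with the drug in control cells from 25.6 ± 3.50 to 15.4 ± 0.879 CPM (adjusted p = 7.14e-05). The Pdgfa protein in the medium is not seen by this assay.

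Of 9 FGF genes 6 were tested, and 1 rose in Vhl cells in DMSO. It was Fgf11, an FGF homologue that stays inside the cell and is not known to activate these receptors, from 21.7 ± 0.838 to 78.4 ± 1.48 CPM (adjusted p = 6.04e-11, edgeR). In control cells the drug raised Fgf11 to 27.9 ± 0.603 CPM and Fgf14, also intracellular, from 15.0 ± 0.501 to 21.8 ± 1.22 CPM. It lowered Fgf1, which can activate all FGF receptors, from 1.82 ± 0.826 to 0.379 ± 0.0521 CPM (adjusted p = 0.000741). Fgf2 was 4.45 ± 0.667 CPM in control cells in DMSO and between 3.98 ± 0.590 and 5.24 ± 0.787 CPM in the other drug table groups.

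Of 11 EGF and neuregulin genes 5 were tested. In DMSO 1 rose in Vhl cells, the EGFR ligand gene Hbegf, from 31.7 ± 1.62 to 38.2 ± 1.5 CPM (adjusted p = 0.0123, edgeR). In control cells the drug lowered 3 and raised none, against 31.7% and 29.1% of all genes. These were Nrg2 (10.5 ± 0.451 to 6.64 ± 0.875 CPM) and Nrg1 (3.14 ± 0.245 to 1.61 ± 0.224 CPM), ligands of ERBB3 and ERBB4, and Egf (3.36 ± 0.144 to 2.23 ± 0.243 CPM). The neuregulin receptor genes Erbb3 and Erbb4 rose in the same comparison. Both also rose with the drug in Vhl cells, where none of the 5 ligand genes rose or fell (median log2 −0.33, against 0.03 over all genes). Of all genes 25.8% rose and 25.6% fell there.

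Of 20 adaptor and docking protein genes, all tested, 5 rose and 5 fell in Vhl cells in DMSO (median log2 −0.02, against −0.03 over all genes). Gab1, a docking protein of EGF and FGF receptors, rose from 185 to 222 CPM and the adaptor gene Shc2 from 16.9 to 28.1 CPM, while Nck2 fell from 61.4 to 50.3 CPM. With the drug 7 rose and 6 fell in control cells (median log2 0.09). Irs1 and Irs2, which carry the signal of the insulin and IGF1 receptors, fell from 93.3 ± 3.90 to 31.8 ± 2.33 CPM and from 171 ± 3.88 to 61.8 ± 4.36 CPM. In Vhl cells they went from 93.3 ± 11.8 to 29.3 ± 2.05 CPM and from 164 ± 4.33 to 72.2 ± 7.01 CPM and fell too (adjusted p = 6.20e-09 and 7.22e-09, edgeR). Irs1 and Irs2 thus fell in the same comparisons as Igf1r and Insr.

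Of 17 genes for receptor turnover and inhibition 16 were tested. In DMSO 2 rose in Vhl cells and none fell (median log2 −0.0012, against −0.03 over all genes). They were Sh2b3 (22.4 to 29.7 CPM) and Lrig1 (414 ± 11.7 to 446 ± 17.5 CPM), whose product leads ErbB receptors to degradation. With the drug 4 rose and 5 fell in control cells (median log2 −0.01). Lrig1 rose to 790.5 ± 3.14 CPM, the ubiquitin ligase gene Cblb rose from 42.0 to 68.9 CPM, and the phosphatase gene Ptprj fell from 116 to 66.2 CPM.

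In the relay below the receptors, 3 of 14 Ras, RAF, MEK and ERK genes rose in Vhl cells in DMSO and none fell (median log2 0.17). Map2k1, which encodes MEK1, rose from 284 to 346 CPM, Nf1, a brake on Ras, from 153 to 178 CPM and Hras from 6.22 to 12.3 CPM (adjusted p = 0.0488, edgeR). With the drug 4 rose and 2 fell in control cells (median log2 0.11), among them Map2k2, which encodes MEK2 and fell from 157 to 115 CPM. Of 17 PI3K, AKT and FOXO genes 16 were tested. In DMSO 3 rose in Vhl cells and 1 fell (median log2 0.09), and with the drug 6 rose and 3 fell in control cells (median log2 −0.02). Foxo6 rose in Vhl cells from 6.37 to 15.1 CPM and the kinase gene Akt1 fell from 314 to 275 CPM. The drug raised Pik3r3, a PI3K regulatory subunit gene, from 5.47 to 18.1 CPM and Foxo4 from 37.8 to 54.9 CPM in control cells. Foxo3, a transcription factor that AKT holds out of the nucleus, rose in Vhl cells from 66.7 ± 5.36 to 135 ± 7.71 CPM and with the drug to 127 ± 3.87 CPM in control cells and 214 ± 8.42 CPM when Vhl cells received it.

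Most tested genes that report MEK and ERK activity fell with the drug. Of 20 such genes 17 were tested, and in control cells 12 fell and 3 rose (median log2 −1.95, against −0.01 over all genes), the feedback inhibitor gene Spry1 from 224 to 26.2 CPM and the cyclin gene Ccnd1 from 693 to 153 CPM. In Vhl cells 10 fell and 3 rose (median log2 −1.69, against 0.03), where 25.6% of all genes fell and 25.8% rose. The fall of Dusp6 was smaller in Vhl cells by log2 0.76 ± 0.07 (adjusted p = 2.73e-05, edgeR's interaction term). By that term 6 of the 17 had a positive difference and none a negative one, against 7.81% and 4.96% of all genes. The median log2 difference was 0.46, against 0.03 over all genes. In AZD8330 12 of the 17 were higher in Vhl cells and none lower, against 16% and 14% of all genes (median log2 0.62, against 0.01). In DMSO 7 of the 17 were higher in Vhl cells and none lower, against 13.8% and 18.5% of all genes (median log2 0.22, against −0.03). Among the 7 were Ccnd1 (885 CPM in Vhl cells), Ier3 and Phlda1.

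Markers of other cell types moved with the drug beside the receptor genes. In control cells the summed level of the 8 neuron markers, 6 of them tested and all 6 raised, went from between 1005 and 1057 CPM to between 2112 and 2122 CPM. The 10 oligodendrocyte markers, 7 tested with 3 raised and none lowered, went from between 144 and 149 CPM to between 446 and 477 CPM, most of it Cnp, and Mog was at 0 in both groups. Of the 10 OPC markers 6 rose and 3 fell, and their sum went from between 8406 and 8557 CPM to between 9427 and 9497 CPM. Between genotypes in DMSO the neuron markers summed to between 1005 and 1057 CPM in control and between 1472 and 1608 CPM in Vhl cells. Of the 6 tested 3 rose and none fell. In untreated control libraries Map2 alone held 2118 to 2763 CPM of neuron marker sums of 2568 to 3230 CPM. The astrocyte markers, 3 of which rose and 3 fell, summed to between 1575 and 1608 CPM in control and between 2062 and 2107 CPM in Vhl cells. Of the 10 OPC markers 6 rose and 1 fell in Vhl cells in DMSO. Of the 7 oligodendrocyte markers tested 2 rose and 1 fell (median log2 −0.37, against −0.03 over all genes). The neuron marker Syt1 was at 0 in both DMSO groups. Markers of endothelial cells, of mesenchymal cells and pericytes, of Schwann and neural crest cells and of pluripotent cells (6 each) summed to at most 17.7, 21.5, 86.9 and 23.8 CPM in any drug library. Of these lists 2, 2, 2 and 3 genes were tested, and in DMSO 2 endothelial markers rose in Vhl cells. The part of these markers in the changes of the receptor genes was not tested.

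Some exon bases are shared with other genes. Fgfr3 shares 998 with G630022F23Rik and Pdgfra 456 with Gm42802, both on the opposite strand and with at most 3.81% and 1.17% of the summed CPM of the pair in any library. Erbb2 shares 9 with Mien1, which held up to 59.5% of that pair, and Fgfr1 164 with Gm16159, at most 0.197%, again on the opposite strand. The sources used here do not say whether reads were counted by strand.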

How the data were processed

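RNA from 18 libraries in 6 groups of 3 was sequenced by the submitters. The authors deposited 2 tables of estimated counts per gene, made with Salmon 0.14.1 on mm10 per the submitters' processing notes. The tables are named as TPM, but their totals differ between libraries and 57.7% and 58.8% of the values above 0 are whole within 0.001, so they were treated as estimated counts. The way transcripts were combined into genes, the annotation and the library kit: not given in the sources used here. Not used were the authors' 2 columns of group means, of which the one named VHL equals the mean of Vhl A, control B and control C in 100% of rows.

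Counts were rounded to whole numbers and each table was scaled alone by TMM, edgeR's correction of library size for composition. CPM are counts per megacount of the scaled library size. Tested were genes whose mean over a table's libraries reached 1 CPM, with edgeR 4.0.16 (R 4.3.3), by the quasi-likelihood test with Benjamini-Hochberg adjustment over all tested genes and a threshold of 0.05, in 1 fit per table without a replicate block. The SE of a log2 change is its absolute size divided by the square root of edgeR's F statistic, from the fit of all libraries of a table. The script was tested on simulated data. Alternatives used DESeq2 1.42.0, limma 3.58.1 (pseudocounts 1 and 0.1), other scalings, filters and sets of samples, a replicate block and each library left out. The untreated fit without both A libraries was added after seeing the data. Depth limits the precision most for Erbb3.

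All 10 receptor genes are named. Of each pathway list, up to 3 genes past the threshold with the smallest p are named per comparison in DMSO and in control cells, with ligands whose mean reached 1 CPM, and like genes are the 3 nearest by pattern. A gene that the rule names is not reported here. Marker genes, Vegfa and the neighbours of Pdgfra were named beyond that rule after their values were seen. The receptor genes and the lists were chosen with earlier results of these data known. Gene positions and lengths came from GENCODE M21 (GRCm38), sequences from RefSeq. Promoter windows of Fgfr1, Erbb3 and Insr and protein sequences were not used here. Figures were drawn with matplotlib 3.10.9.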

Additional observations from a re-analysis of the deposited data

Results flagged for a closer look

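The effect of AZD8330 differed between Vhl and control cells for 2 receptor genes by edgeR's interaction term, by log2 0.37 for Fgfr1 (adjusted p = 0.0136) and by log2 −0.66 for Erbb4 (adjusted p = 2.64e-05). Fgfr1 fell less in Vhl cells and Erbb4 rose less. The Fgfr1 call was lost without Vhl A in AZD8330 (log2 0.25, adjusted p = 0.12) and without control B in AZD8330 (log2 0.26, adjusted p = 0.123, edgeR).

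For Pdgfra every untreated Vhl library lay below every control library (log2 −0.48), and every Vhl library lay above every control library in DMSO (log2 0.87) and in AZD8330 (log2 0.74). For Erbb4 the libraries were separated in the same way, lower in untreated Vhl cells (log2 −0.83) and higher in Vhl cells in DMSO (log2 0.24). The untreated differences did not pass (adjusted p = 0.575 for Pdgfra and 0.417 for Erbb4, edgeR), and without both A libraries they were log2 −0.16 and −0.76. The untreated and drug tables were made in separate experiments, and these opposite directions were not tested against each other.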

How the results depend on the processing

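Of 70 log2 changes of receptor genes 47 were called, and 44 of these kept their direction and call under every alternative run, 21 settings for drug libraries and 15 for untreated ones. The exceptions were the drug effect on Erbb3 in Vhl cells and the interaction of Fgfr1, given above, and Insr between Vhl cells in AZD8330 and control cells in DMSO, which was log2 −0.12 with total-count scaling (adjusted p = 0.0779) and −0.13 without control C in DMSO (adjusted p = 0.05, edgeR). Calls were gained for Insr by its interaction with a filter at a mean of 5 CPM (log2 −0.26, adjusted p = 0.0363) and in AZD8330 without control A in DMSO (adjusted p = 0.0482, edgeR), besides the untreated ones given above.

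The number of genes changed in untreated cells, 2 by edgeR, was 355 by DESeq2, 4 by limma with either pseudocount, 143 with no filter, 606 without both A libraries, and 0 to 439 with 1 library left out (439 without Vhl A, and 0 without Vhl B, control A, control B or control C). The cause was not tested. The interaction of Fgfr2 was reversed by DESeq2 (−0.019), by RLE scaling (−0.0198), by total-count scaling (−0.0514) and by the 5 CPM filter (−0.0733), and that of Erbb2 by total-count scaling (−0.0303) and by the 5 CPM filter (−0.0525). Fgfr1 in DMSO was −0.00044 with no filter. None of these was called. With 1 library left out, changes that were not called and crossed 0 ranged in untreated cells from −0.26 to 0.23 for Fgfr3, −0.17 to 0.36 for Egfr and −0.0818 to 0.23 for Erbb2, in the interaction from −0.0831 to 0.0846 for Fgfr2, −0.13 to 0.0766 for Erbb2 and −0.20 to 0.0211 for Egfr, from −0.0277 to 0.0784 for Fgfr1 in DMSO, and from −0.14 to 0.0074 for Egfr between Vhl cells in AZD8330 and control cells in DMSO. With the summed length of all exons in place of the longest coding transcript, 4 of the 10 genes kept their place in the order of levels in untreated control cells and 5 in control cells in DMSO.

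A replicate block on the library letters gave 0 changed genes in untreated cells, against 2 without it (1267 at an unadjusted p under 0.05 without the block), and changed no call of a receptor gene. To look for pairing, the group mean of each gene was subtracted from its log2 level in each library. These deviations, not the levels themselves, were then correlated between same-letter libraries of different groups. The correlations were −0.081 to 0.0203 in the untreated table and −0.0443 to 0.0528 in the drug table, so the letters were not taken to pair the samples. They are correlations over all tested genes, and whether the untreated A libraries share a batch was not tested. In both untreated genotypes Sox10 and Erbb3 were highest and Fgfr3 was lowest in A.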

Other observations

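Control cells in medium alone and in DMSO were measured in separate experiments, on tables scaled separately, and were not tested against each other. Their mean levels are given side by side. Pdgfra was 206 ± 45.1 CPM in untreated control cells and 35.1 ± 7.60 CPM in DMSO, Erbb4 411 ± 74.7 and 74.8 ± 0.895 CPM, and Fgfr3 429 ± 135 and 127 ± 12.3 CPM (SD, n = 3). In AZD8330 the same genes were at 84.6 ± 5.06, 369 ± 6.74 and 288 ± 10.4 CPM. Dusp6, the ERK target, was at 53.1 CPM in untreated control cells, 415 CPM in DMSO and 20.9 CPM in AZD8330. Other members had other orders. Fgfr2 was at 41.7 ± 1.48 CPM untreated, 42.9 ± 1.22 CPM in DMSO and 54.0 ± 1.35 CPM in AZD8330. In the same order of settings, control means were 280, 185 and 118 CPM for Igf1r and 82.4, 58.1 and 42.8 CPM for Erbb2. Insr had 93.5, 82.5 and 67.4 CPM and Fgfr1 170, 192 and 115 CPM. Egfr had 83.5, 52.7 and 87.7 CPM and Erbb3 30.0, 9.02 and 16.4 CPM.

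Fgf11, the intracellular FGF homologue, was at 141 ± 6.75 CPM in Vhl cells in AZD8330, against 27.9 ± 0.603 CPM in control cells in AZD8330 (log2 2.34 ± 0.05, adjusted p = 2.52e-12, edgeR). Its drug effect was larger in Vhl than in control cells by log2 0.49 ± 0.07 (adjusted p = 0.000926, edgeR's interaction term).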
